A study of Mus musculus with 14 samples.

Results

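The 10 genes described here encode enzymes of mitochondrial beta-oxidation: Cpt1b, Cpt2, Acadm, Acadl, Acadvl, Hadha, Hadhb, Hadh, Etfdh and Echs1. They were chosen by gene name among the 54532 genes of the deposited tables. Of the 54532 genes, 15458 passed the filter on low counts, and all 10 enzyme genes were among them.

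RNA-seq was carried out on skeletal muscle, soleus and gastrocnemius, of male FVB/N mice in 14 libraries, and the labels do not give the muscle behind each library. EC-Myc OE mice carried Tet-O-Myc, a human c-Myc transgene, together with Cdh5-tTA, a transactivator driven by an endothelial promoter. Their CT littermates carried Tet-O-Myc without the transactivator, and the promoter directs the transgene to endothelial cells and not to muscle fibres. Taking doxycycline out of the feed at 4 to 6 weeks of age induced the transgene. Feeding with a control diet (CTD, TD.08485) or a high-fat western diet (WD, TD.88137) lasted 20 weeks by the labels, while the study's text gives a shorter time for the transcriptome. CT mice gave 3 libraries on control diet (CT-CTD) and 3 on western diet (CT-WD), EC-Myc OE mice gave 4 on each (OE-CTD and OE-WD), and a number after a group's name is the replicate number. A legend of the study splits the group sizes by diet instead, and the labels were followed. If the names CT-WD and OE-CTD were exchanged, as the legend's sizes would need, the comparisons of genotype and of diet below would change places and the interaction would keep its value. The labels do not say that each library came from a separate mouse. In the file headers 3 of 4 OE-CTD names, those of OE-CTD 1 to 3, share their closing digits. So do 4 of 4 OE-WD names, and no CT names share them within a group. Over genes with at least 10 counts in a pair of libraries, chi-squared per degree of freedom was 7.50 to 10.2 among OE-CTD 1 to 3, 8.17 to 14.5 among OE-WD 1 to 3, 35.6 to 41.2 between the library numbered 4 and the others of its group, and 16.1 to 48.1 in CT pairs. The number of EC-Myc OE mice is thus not known, and the p-values below measure only the spread between these libraries. The reads counted on genes were 24807368, 24101226 and 25054855 for CT-CTD, 26518734, 21833839 and 23814408 for CT-WD, 25486678, 28519159, 22966288 and 22083340 for OE-CTD, and 25281275, 27115249, 22033140 and 27698046 for OE-WD.

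Mitochondrial beta-oxidation shortens fatty acids in the mitochondrial matrix, releasing acetyl-CoA for the tricarboxylic acid cycle and passing electrons to the respiratory chain. Long-chain fatty acids enter as carnitine esters, and each turn of the spiral then takes an oxidation, a hydration, a further oxidation and a cleavage by thiolase. Skeletal muscle uses the pathway for energy at rest and during endurance exercise, and fibres rich in mitochondria hold more of its enzymes than fast glycolytic fibres.

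The mouse Myc gene was measured first as a check of the labels, in CPM, counts relative to a library total scaled by edgeR's TMM method. It was at 4.59, 6.11 and 4.45 CPM in CT-CTD, 8.71, 4.93 and 13.3 in CT-WD, 6.63, 5.87, 6.84 and 3.06 in OE-CTD, then 9.03, 5.61, 5.74 and 5.22 in OE-WD. The groups overlapped, and since the transgene is human, the mouse gene does not check the genotype. The tissue label was checked with muscle markers. All 7 skeletal muscle markers were expressed, led by Acta1 at a mean of 42921 CPM, and the sum of the list was between 68537 and 97692 CPM. Of 6 cardiac markers, Nppa, Nppb, Tnni3 and Ryr2 did not pass the filter on low counts.

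OE-CTD 4 and OE-WD 4 stood apart from the other 12 libraries. Transcripts of mitochondrial DNA took 14.9% of the counts in OE-CTD 4 and 14.5% in OE-WD 4, against 9.66% to 12.8% elsewhere. Their TMM factors were 0.888 and 0.899, against 0.945 to 1.07 elsewhere. The 10 enzyme genes together were at 2326, 2227 and 2698 CPM in CT-CTD, 2463, 2341 and 2522 in CT-WD, 3202, 3119, 3044 and 2651 in OE-CTD, then 2904, 2683, 2701 and 2344 in OE-WD. The sum was lowest of its group in OE-CTD 4 and again in OE-WD 4. The other 3 OE-CTD libraries were above all CT libraries of either diet. In each EC-Myc OE group, Acadm, Acadl, Acadvl, Hadhb, Hadh, Etfdh and Echs1 were lowest in the library numbered 4, while Hadha was not. Counts of the 10 genes called, past an unadjusted p or separate between groups are given with and without these libraries where they differ. Without OE-CTD 4, the OE-CTD libraries left all share closing digits in their names and may not be separate mice. Higher counts without it may thus rest on fewer mice.

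Levels were compared between genes as FPKM, counts scaled to gene length and to a library total. Acadl, the long-chain acyl-CoA dehydrogenase, had the highest mean at 211 ± 26.3 FPKM (SD, 14 libraries). Acadm followed at 120.4 ± 18.3 FPKM, then Acadvl at 95.7 ± 10.5, Hadhb at 77.8 ± 10.9 and Hadha at 70.3 ± 8.41. This order held in all 4 group means; Acadm was above Acadvl in 13 of 14 libraries and Hadhb was above Hadha in 12 of 14 libraries. Cpt2 at 41.6 ± 4.43 FPKM and Hadh at 39.9 ± 6.26 did not differ beyond their spread, with Cpt2 the higher in 8 of 14 libraries. Etfdh was at 24.5 ± 3.46 FPKM, Echs1 at 16.6 ± 1.52 and Cpt1b at 2.24 ± 0.586, in that order in 14 of 14 libraries.

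The order depended on the length used. For all 10 genes the deposited length was that of all annotated exons joined, which was 1.01 times the principal transcript for Cpt2 and 5.32 times for Echs1. Scaled to the principal transcript, an alternative chosen after the data were seen, Hadhb came first at a mean level of 250.4 and Acadm next at 230.1. Acadl was at 221 on this scale, Hadha at 153, Acadvl at 119, Hadh at 111, Echs1 at 88.4, Etfdh at 77.5, Cpt2 at 41.9 and Cpt1b at 2.60. Hadhb was above Acadm in 13 of 14 libraries. Neighbours exchanged places between libraries for Acadm and Acadl, with Acadm higher in 10 of 14, for Acadvl and Hadh, with Acadvl higher in 10 of 14, and for Echs1 and Etfdh, with Echs1 higher in 12 of 14. Cpt1b was lowest on either scale.

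The level of Cpt1b is uncertain. It shares 81.4% of its exon bases with Gm44502, an annotated gene on the same strand, and held 93 to 242 counts a library, while Gm44502 held 0 to 2. Acadvl shares 42.9% of its exon bases with Dvl2 on the opposite strand, which held 191 to 403 counts beside 4060 to 7971 for Acadvl. Reads from such shared bases could not be assigned from the tables. The places of Cpt1b and Acadvl in both orders are therefore uncertain, and would be too low if such reads were left out.

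**Figure D1:**
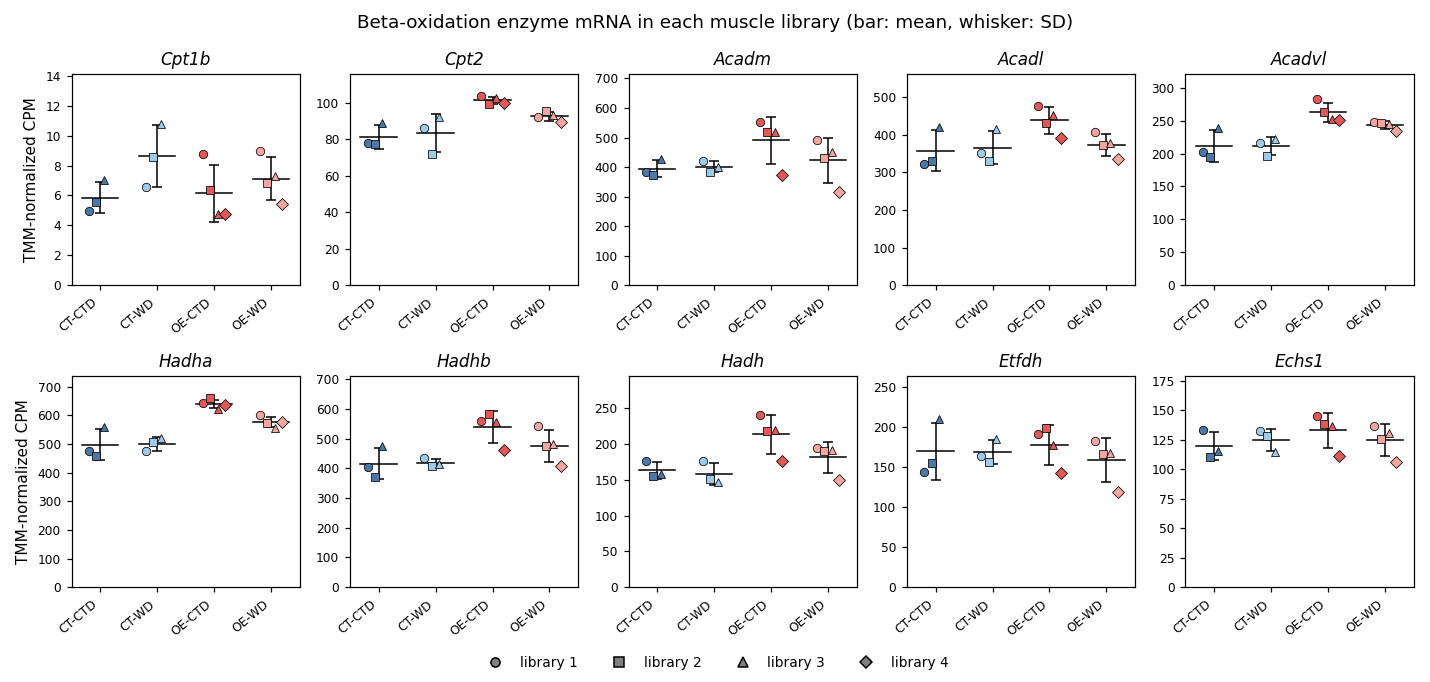
TMM-normalized CPM (y axis) of each of the 10 genes in the 14 libraries by group (x axis), with a marker shape per library number, a bar at the group mean and a whisker of 1 SD. For Hadha the 4 OE-CTD libraries, from 622 to 659 CPM, lie above all 3 CT-CTD libraries, and in the panels of Acadm, Hadhb, Hadh, Etfdh and Echs1 the library numbered 4 is the lowest of its group.

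The first question was how muscle of EC-Myc OE mice differed from muscle of CT mice on control diet. All 10 genes had a log2 fold change above 0 in OE-CTD relative to CT-CTD, from 0.07 to 0.39, with a median of 0.31 against −0.00070 over all genes tested. Hadha, the alpha subunit of the trifunctional protein, rose and was the 1 of 10 genes called by edgeR's quasi-likelihood test at a Benjamini-Hochberg adjusted p-value under 0.05, a rule that 2.67% of all genes passed. Called and over 1.5-fold were 0 of 10, against 1.91% of all genes. At an unadjusted p under 0.05, 7 of 10 were higher and 0 lower, against 9.22% and 6.7% of all genes. In 3 of 10, Cpt2, Acadvl and Hadha, each OE-CTD library was above each CT-CTD library, against 8.73% of all genes, and in 0 of 10 the reverse held, against 6.75%. Without OE-CTD 4 and OE-WD 4 there were 8 higher at an unadjusted p under 0.05, against 10.2% of all genes, and 8 separate and higher, all but Cpt1b and Etfdh, against 14.4%. The 7 at an unadjusted p under 0.05 became 5 without CT-CTD 1, CT-CTD 2 or OE-CTD 1, by edgeR. They became 6 without OE-CTD 2 or OE-CTD 3. The separate genes were 5 without CT-CTD 3, against 12% of all genes. In bulk RNA, more cells of a type and more RNA per cell cannot be told apart.

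Among the carnitine transferases, Cpt1b (ENSMUSG00000078937, chr15:89416405-89425863, minus strand) is the muscle form of the outer-membrane enzyme that loads fatty acids onto carnitine. Its CPM were 4.98, 5.56 and 7.03 in CT-CTD and 8.74, 6.33, 4.74 and 4.75 in OE-CTD. The groups overlapped, with the highest OE-CTD library above and the lowest 2 below all of CT-CTD. Its log2 fold change was 0.07 ± 0.236 (SE) with an adjusted p of 0.924 by edgeR, and it was −0.15 without OE-CTD 1 and −0.0370 without CT-CTD 1.

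Cpt2 (ENSMUSG00000028607, chr4:107903981-107923610, minus strand) encodes the inner-membrane transferase that hands the fatty acid back to coenzyme A. It was at 77.8, 77.7 and 89.2 CPM in CT-CTD and at 104, 99.7, 103 and 100.2 in OE-CTD. The lowest OE-CTD library stood above the highest CT-CTD library, and the OE-CTD libraries lay close together. For Cpt2 the log2 fold change was 0.32 ± 0.0851 (SE), and its adjusted p by edgeR 0.0644 (0.00201 before adjustment). Cpt2 was called without CT-WD 2 (adjusted p = 0.0332 by edgeR) and without CT-WD 3 (0.0414), and by DESeq2 with all libraries; the range of its adjusted p over the alternatives was 0.0144 to 0.242.

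The acyl-CoA dehydrogenases carry out the oxidation that opens each turn, and differ in the chain length they prefer. Acadvl (ENSMUSG00000018574, chr11:70010183-70015411, minus strand), for very long chains, was at 202, 194 and 239 CPM in CT-CTD and at 283, 263, 253 and 252 in OE-CTD. The groups did not overlap. Acadl (ENSMUSG00000026003, chr1:66830839-66863277, minus strand), for long chains, was at 322, 330.2 and 421 CPM in CT-CTD and at 477, 432, 453 and 392 in OE-CTD. CT-CTD 3 was above OE-CTD 4, and the other libraries were separate. Acadm (ENSMUSG00000062908, chr3:153922357-153944632, minus strand), for medium chains, was at 385, 372 and 427 CPM in CT-CTD and at 551, 519, 518 and 373 in OE-CTD. For Acadm the first 3 OE-CTD libraries were above all of CT-CTD, and OE-CTD 4 fell within its range. The log2 fold changes were 0.31 ± 0.0853 (SE) for Acadvl, 0.29 ± 0.114 for Acadl and 0.31 ± 0.144 for Acadm. Their adjusted p-values by edgeR were 0.0680, 0.211 and 0.300, at unadjusted p of 0.00220, 0.0209 and 0.0450. Without OE-CTD 4 and OE-WD 4, Acadm was called, with an adjusted p of 0.0153 by edgeR.

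The trifunctional protein takes long-chain intermediates through the last 3 steps. Its alpha subunit is encoded by Hadha (ENSMUSG00000025745, chr5:30118304-30155162, minus strand) and its beta subunit by Hadhb (ENSMUSG00000059447, chr5:30155248-30184593, plus strand). Hadha was at 476, 458 and 559 CPM in CT-CTD and at 642, 659, 622 and 637 in OE-CTD, with group means of 497 ± 53.9 and 640.3 ± 15.3 (SD). All 4 OE-CTD libraries were above all 3 CT-CTD libraries. The log2 fold change of Hadha was 0.36 ± 0.0821 (SE; 95% interval 0.19 to 0.54), a fold of 1.29, and its adjusted p by edgeR 0.0310 (0.000448 before adjustment). Hadhb was at 404, 369.9 and 474 CPM in CT-CTD and at 558, 584, 556 and 463 in OE-CTD. CT-CTD 3 was above OE-CTD 4, and the other 3 OE-CTD libraries were above all of CT-CTD. For Hadhb the log2 fold change was 0.38 ± 0.111 (SE), and its adjusted p by edgeR 0.0912 (0.00404 before adjustment). The ratio of Hadha to Hadhb counts was 1.15, 1.13, 1.12 and 1.38 in OE-CTD and 1.18, 1.24 and 1.18 in CT-CTD, so that OE-CTD 4 stood out by its low Hadhb and not by Hadha.

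The call of Hadha rested on several single libraries. No member was called by edgeR without CT-CTD 1, without CT-CTD 2, without OE-CTD 1, without OE-CTD 2 or without OE-CTD 3 (0 of 10 each, against 0.674% to 2.19% of all genes). There were 2 called without CT-WD 2 and 2 without CT-WD 3, in both cases Cpt2 and Hadha (against 2.85% and 3.14% of all genes), and 3 without OE-CTD 4, namely Hadha, Hadhb and Hadh (2.78%). Without OE-CTD 4 and OE-WD 4 together there were 4, Acadm, Hadha, Hadhb and Hadh, against 3.61% of all genes. The OE-CTD libraries left without OE-CTD 4 share closing digits and may not be separate mice. The log2 fold change of Hadha stayed between 0.31 and 0.46 over the 24 alternatives, with an adjusted p from 0.00036 to 0.155. DESeq2 called 5 of 10, Cpt2, Acadvl, Hadha, Hadhb and Hadh, against 5.27% of all genes, and limma on log2(FPKM + 1) called 2, Acadvl and Hadha, against 1.69%. Libraries scaled by their totals alone gave 0 called, against 1.38% of all genes, as did a fit of the compared groups only, against 4.04%, and a fit with the replicate number as a block, against 0.0906%.

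Echs1 and Hadh encode the hydratase and the dehydrogenase for shorter chains. Hadh (ENSMUSG00000027984, chr3:131233419-131272101, minus strand) was at 176, 155 and 158 CPM in CT-CTD and at 241, 218, 219.9 and 176 in OE-CTD. The first 3 OE-CTD libraries were above all of CT-CTD, and OE-CTD 4 was just below CT-CTD 1. Its log2 fold change of 0.39 ± 0.117 (SE) had an adjusted p of 0.0988 by edgeR (0.00458 before adjustment), which was 0.0348 without OE-CTD 4. Echs1 (ENSMUSG00000025465, chr7:140105710-140116476, minus strand) was at 133, 110.4 and 115 CPM in CT-CTD and at 145, 139, 136 and 111 in OE-CTD. The groups overlapped in OE-CTD 4, which was below 2 of 3 CT-CTD libraries. For Echs1 the log2 fold change was 0.15 ± 0.109 (SE), with an adjusted p of 0.555 by edgeR, and it was 0.10 without CT-CTD 2 and 0.23 without CT-CTD 1.

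Etfdh (ENSMUSG00000027809, chr3:79603788-79629500, minus strand) encodes the oxidoreductase that passes electrons from the acyl-CoA dehydrogenases to ubiquinone. It was at 144, 155 and 209.7 CPM in CT-CTD and at 192, 199, 177 and 142 in OE-CTD. The groups overlapped, with the highest value in CT-CTD 3 and the lowest in OE-CTD 4. The log2 fold change was 0.07 ± 0.156 (SE), with an adjusted p of 0.886 by edgeR, and it was −0.0423 without CT-CTD 1.

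The same comparison was made on western diet. In OE-WD relative to CT-WD, 7 of 10 genes had a log2 fold change above 0, with a range from -0.27 to 0.21 and a median of 0.11 against 0.0056 over all genes. The median was 0.05 without CT-WD 2, 0.06 without OE-WD 1 and 0.18 without OE-WD 4. With a library left out, Acadm, Acadl, Etfdh and Echs1 each turned sign at least once. By edgeR 0 of 10 passed an adjusted p under 0.05, against 0.725% of all genes, and 0 of 10 also passed 1.5-fold, against 0.563%. The share of all genes at an adjusted p under 0.05 was 9.47% without CT-WD 1 and 0.026% without OE-WD 2. DESeq2 and limma called 0 of 10 each, against 3.73% and 0.252% of all genes. At an unadjusted p under 0.05 by edgeR, 2 of 10 were higher and 0 lower, against 8.44% and 8.42% of all genes. In 2 of 10, Acadvl and Hadha, the libraries of OE-WD were all above those of CT-WD, against 6.06% of all genes, and in 0 of 10 all below, against 5.54%. Without OE-WD 4 those all above were 5, Acadm, Acadvl, Hadha, Hadhb and Hadh, against 9.05% of all genes.

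Hadha was at 475, 506 and 519.7 CPM in CT-WD and at 601, 572, 556 and 579 in OE-WD. Acadvl was at 216, 196 and 223 CPM in CT-WD and at 248, 247, 244 and 235 in OE-WD. For each of these genes the lowest OE-WD library stood above the highest CT-WD library. The log2 fold change of Hadha was 0.21 ± 0.0818 (SE) with an adjusted p of 0.222 by edgeR, and that of Acadvl 0.20 ± 0.0851 with 0.245. Hadhb, the partner of Hadha, was at 435, 409 and 414 CPM in CT-WD and at 541, 476, 480.2 and 409 in OE-WD. Its groups overlapped in OE-WD 4, and its log2 fold change was 0.19 ± 0.111 (SE), or 0.12 without OE-WD 1. Hadh was at 177, 152 and 147 CPM in CT-WD and at 195, 190.1, 192 and 149 in OE-WD. OE-WD 4 was within the CT-WD range and the other 3 libraries above it, with a log2 fold change of 0.20 ± 0.117 (SE). Log2 fold changes of 0.15 ± 0.0849 for Cpt2 and -0.27 ± 0.230 for Cpt1b were not called. That of Cpt2 was 0.05 without CT-WD 2 and 0.23 without CT-WD 3, and that of Cpt1b -0.44 without CT-WD 1 and -0.09 without CT-WD 3. The 2 genes at an unadjusted p under 0.05 became 1 without CT-WD 2, without OE-WD 2 or without OE-WD 3, 0 without OE-WD 1, 4 without OE-WD 4, and 5, all higher, without OE-CTD 4 and OE-WD 4 together, against 8.41% of all genes higher, by edgeR. Without CT-WD 1 they were Acadvl and Hadh, without CT-WD 3 Cpt2, Acadvl and Hadha, and with the replicate number as a block there were 3, Acadm, Hadhb and Hadh, without Acadvl and Hadha.

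The next comparison asked how western diet changed muscle of EC-Myc OE mice. In OE-WD relative to OE-CTD, 9 of 10 genes had a log2 fold change below 0, all but Cpt1b. The range was from -0.24 to 0.21, with a median of −0.16 against 0.0048 over all genes. The value of 0.21 was that of Cpt1b, which was at 0.08 without OE-WD 1 and 0.43 without OE-CTD 1. By edgeR 0 of 10 were called at an adjusted p under 0.05, against 0.00647% of all genes, the same share that also passed 1.5-fold, and DESeq2 and limma called 0 of 10 each, against 0.00647% of all genes for either. At an unadjusted p under 0.05 by edgeR, 2 of 10, Acadl and Hadh, were lower and 0 higher, against 2.27% and 1.93% of all genes. Without OE-CTD 4 and OE-WD 4 together, 2 were lower, but these were Acadm and Hadh, against 2.03% of all genes lower. In 3 of 10, Cpt2, Acadvl and Hadha, all OE-WD libraries were below all OE-CTD libraries, against 2.23% of all genes, and in 0 of 10 above, against 1.84%. Without OE-CTD 4, with or without OE-WD 4, those all below were 7, Cpt2, Acadm, Acadl, Acadvl, Hadha, Hadhb and Hadh, against 5.23% of all genes with OE-WD 4 and 7.69% without it.

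In OE-WD, Hadha lay between 556 and 601 CPM, below the lowest OE-CTD library at 622 CPM, with a log2 fold change of -0.15 ± 0.0754 (SE) and an unadjusted p of 0.0651 by edgeR. Cpt2 was at 92.4, 95.6, 93.4 and 89.8 CPM in OE-WD, each below the lowest OE-CTD library, with a log2 fold change of -0.13 ± 0.0782 (SE). The OE-WD values of Cpt2 and Hadha lay between the OE-CTD values and most CT values. Acadl was at 408, 372, 377 and 336 CPM in OE-WD. OE-WD 1 was above OE-CTD 4 and the other 3 OE-WD libraries were below all of OE-CTD. The log2 fold change of Acadl was -0.23 ± 0.105 (SE) with an unadjusted p of 0.0421 by edgeR, and that of Hadh -0.24 ± 0.108 with 0.0445, or -0.15 without OE-WD 4. All 10 adjusted p-values by edgeR came to 0.99994. The 2 genes at an unadjusted p under 0.05 became 1 without CT-CTD 2, CT-WD 2 or OE-WD 3, 0 without OE-CTD 1, OE-CTD 2, OE-CTD 3, OE-WD 2 or OE-WD 4, and 4 without OE-CTD 4, by edgeR. They became 7 with the replicate number as a block, a pairing that the check of the libraries' deviations did not bear out for every number.

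The diet was also compared in CT mice. In CT-WD relative to CT-CTD, the median log2 fold change of the 10 genes was 0.02, against 0.0071 over all genes, with a range from -0.04 to 0.56; with a library left out the median was between -0.04 and 0.10. By edgeR 0 of 10 were called, against 0% of all genes at any fold and 0% over 1.5-fold, and DESeq2 and limma called 0 of 10 each, against 0.226% and 0% of all genes. At an unadjusted p under 0.05 by edgeR, 1 of 10, Cpt1b, was higher and 0 lower, against 4.19% and 3.09% of all genes. In 0 of 10 genes were the groups separate, higher or lower, against 4.47% and 5.16% of all genes. Without CT-CTD 3 they were separate and higher in 4, Cpt1b, Acadl, Hadhb and Etfdh, against 8.24% of all genes, and without CT-WD 1 in 1, Cpt1b, and lower in 1, Hadh, against 13.7% each way. Cpt1b was at 6.58, 8.60 and 10.8 CPM in CT-WD. The highest CT-CTD library of Cpt1b was above the lowest CT-WD library, and the other CT-WD libraries were above all of CT-CTD. Its log2 fold change was 0.56 ± 0.250 (SE), and its adjusted p by edgeR 0.667 (0.0406 before adjustment), while without CT-WD 3 the log2 fold change was 0.37. The count at an unadjusted p under 0.05 became 0 without CT-CTD 1, CT-CTD 2, CT-WD 2 or CT-WD 3, and 1 gene, Cpt1b, was counted with the replicate number as a block.

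Whether the diet difference depended on genotype was tested as the diet by genotype interaction. All 10 genes had a value below 0, that is a lower log2 fold change by diet in EC-Myc OE than in CT, from -0.35 to -0.11, with a median of −0.18 against −0.0057 over all genes. The median was -0.27 without CT-CTD 3 and -0.12 without CT-CTD 2 or without OE-WD 4. At the lower end of the range, Cpt1b was at -0.52 without CT-WD 1 and -0.13 without OE-CTD 1. At the upper end, Acadvl was at -0.21 without CT-CTD 3 and -0.05 without CT-CTD 2. By edgeR 0 of 10 were called, against 0% of all genes at any fold and 0% over 1.5-fold, and DESeq2 and limma called 0 of 10 each, against 0.0194% and 0% of all genes. At an unadjusted p under 0.05, 0 of 10 were higher or lower by edgeR, against 2.57% and 3.34% of all genes. The smallest p was 0.120, for Acadl at -0.26 ± 0.160 (SE), with an adjusted p of 0.876 by edgeR, and the value of Acadl was -0.40 without CT-CTD 3 and -0.17 without CT-WD 3. The count at an unadjusted p under 0.05 was 2, Acadl and Hadha, without CT-CTD 3, and 1, Cpt2, without CT-WD 2, by edgeR. With the replicate number as a block it was 3, Acadm, Acadl and Hadh. For Hadha the interaction was -0.16 ± 0.115 (SE) with an adjusted p of 0.893 by edgeR, and it was -0.25 without CT-CTD 3 and -0.10 without CT-CTD 2, so its difference between genotypes is not shown to differ between the diets. The OE-CTD and CT-CTD libraries enter several of these comparisons, so their values for the 10 genes are not independent of each other.

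**Figure D2:**
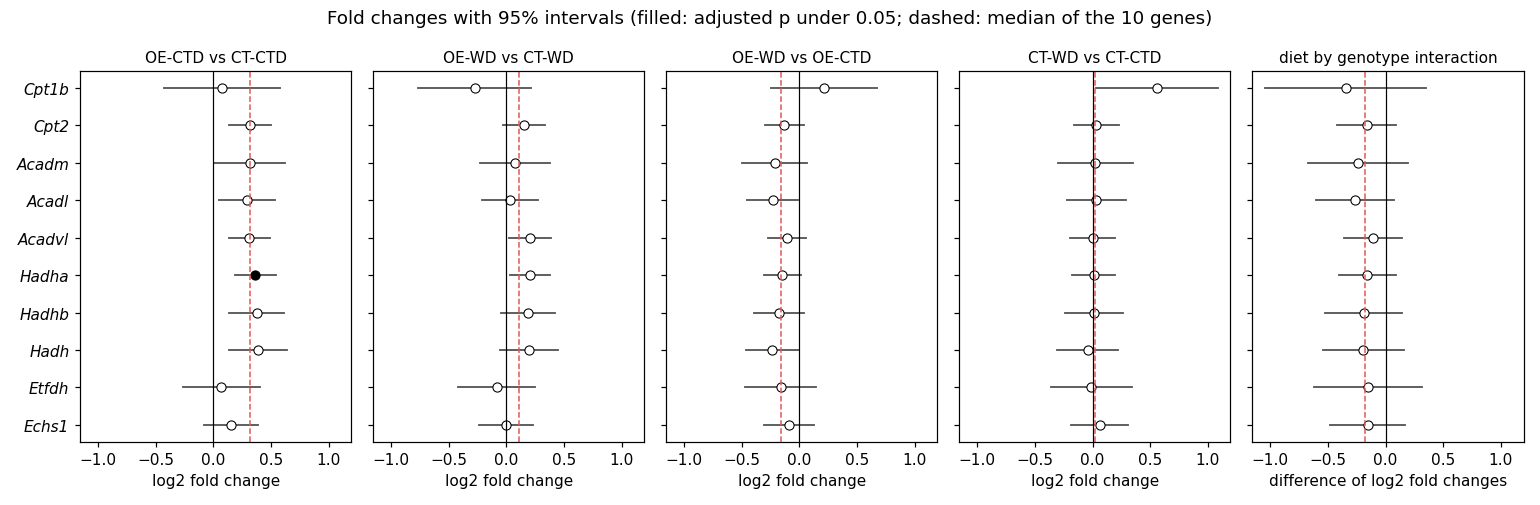
Log2 fold change (x axis) of each of the 10 genes (y axis) in the 4 comparisons of groups, and the difference of log2 fold changes in the interaction, with 95% intervals. Hadha in OE-CTD vs CT-CTD, at 0.36, is the 1 filled point, and the dashed lines mark the medians of the 10 genes, 0.31 in that comparison.

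The 10 genes varied together to different degrees. Over the 14 libraries, Pearson's r between a gene's log2 CPM and the mean of the other 9 was 0.907 for Hadhb, 0.905 for Acadm, 0.885 for Acadl and 0.797 for Acadvl. It was 0.746 for Hadh, 0.705 for Etfdh, 0.70005 for Cpt2, 0.672 for Hadha, 0.630 for Echs1 and 0.180 for Cpt1b. Within groups, after each group's mean was taken off, Etfdh was at 0.930 and Cpt1b at 0.690, while Hadha was at 0.461. These values describe libraries that share depth, scaling and groups, and OE-CTD 4 and OE-WD 4 are among the points. Of 7526 other genes with a mean of at least 10 CPM, the 6 most like the mean of the 10 genes were Cs (r = 0.911), which encodes citrate synthase, Uqcrc2 (0.887), Ndufs1 (0.880), Hes1 (0.877), Hsdl2 (0.867) and Rab1a (0.867), over 14 libraries.

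The rest of the pathway was described from a list of 19 other mitochondrial beta-oxidation genes, all tested. In OE-CTD relative to CT-CTD, 4 of 19 rose and 0 fell at an adjusted p under 0.05 by edgeR, against 2.67% of all genes called. There were 7 higher and 1 lower at an unadjusted p under 0.05, against 9.22% and 6.7% of all genes. DESeq2 and limma called the same 4, against 5.27% and 1.69% of all genes. The median log2 fold change of the 19 was 0.11. Decr1, the dienoyl-CoA reductase for unsaturated chains, was at 99.6, 101 and 128 CPM in CT-CTD and at 164, 145, 154 and 149.5 in OE-CTD. Ech1, an isomerase for unsaturated chains, was at 136, 145 and 163 CPM in CT-CTD and at 210.4, 205, 206 and 183 in OE-CTD. In both genes every OE-CTD library was above every CT-CTD library. Decr1 had a log2 fold change of 0.48 ± 0.0882 (SE; adjusted p = 0.0111 by edgeR) and Ech1 one of 0.44 ± 0.0899 (adjusted p = 0.0184). Acaa2, a thiolase, rose by 0.41 ± 0.0963 (adjusted p = 0.0358 by edgeR) and Acads, the short-chain dehydrogenase, by 0.30 ± 0.0708 (0.0378) in log2 fold change. In OE-WD relative to OE-CTD 0 of 19 were called by edgeR, DESeq2 or limma, against 0.00647% of all genes for each. Lower at an unadjusted p under 0.05 by edgeR were 6 of 19 and higher 0, against 2.27% and 1.93% of all genes. The lower genes were led by Ech1 at -0.36 ± 0.0826 (SE) and Etfb at -0.37 ± 0.122. In OE-WD relative to CT-WD edgeR and limma called 0 of 19 and DESeq2 1, Acads, against 0.725%, 0.252% and 3.73% of all genes. By edgeR 2 were higher and 3 lower at an unadjusted p under 0.05, against 8.44% and 8.42% of all genes. In the interaction 0 were called by these tools and 5 were lower at an unadjusted p under 0.05 by edgeR, against 3.34% of all genes lower. In CT-WD relative to CT-CTD 0 were called. There 0 passed an unadjusted p under 0.05, against 4.19% of all genes higher and 3.09% lower.

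Genes that feed or regulate the 10 enzymes were counted by edgeR in OE-CTD relative to CT-CTD and in OE-WD relative to CT-WD. At an adjusted p under 0.05, 2.67% and 0.725% of all genes were called in these comparisons by edgeR. DESeq2 called 5.27% and 3.73% of all genes, and limma 1.69% and 0.252%. The shares given here also stand beside the counts of the later lists in these comparisons. At an unadjusted p under 0.05, 9.22% of all genes were higher and 6.7% lower on control diet, and 8.44% and 8.42% on western diet. Of 8 genes of the carnitine shuttle and of fatty acid activation, 0 were called in either comparison, with 1 higher and 1 lower, then 2 higher and 1 lower, at an unadjusted p under 0.05. DESeq2 called 1 of these, Acsl6, lower on control diet (-0.36 ± 0.108, log2 fold change and SE by edgeR), and limma 0. Of 12 peroxisomal beta-oxidation genes edgeR and limma called 0 and DESeq2 1, Crot, lower on control diet, with 1 higher and 1 lower at an unadjusted p under 0.05 in each comparison. Of 17 genes of the tricarboxylic acid cycle 0 were called by the 3 tools, with 3 higher on control diet and 2 lower on western diet at an unadjusted p under 0.05. Among 18 regulators of fatty acid oxidation, Lpin1 fell on western diet, with a log2 fold change of -0.71 ± 0.149 (adjusted p = 0.0407 by edgeR). On control diet edgeR called 0, with 3 lower at an unadjusted p under 0.05, among them Lpin1 (-0.44 ± 0.150). At an unadjusted p under 0.05 by edgeR, 1 was higher and 2 were lower on western diet. By limma 0 were called in both, and by DESeq2 0 on control diet and 2 on western diet, Lpin1 and Mlycd.

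Of 12 PPAR-responsive genes outside the pathway, 2 fell and 0 rose by edgeR in each comparison of genotypes, at medians of 0.10 on control diet and −0.25 on western diet in log2 fold change; DESeq2 called 3 lower and limma 1 lower in each. Ucp3, a mitochondrial uncoupling protein of muscle, was at 493, 498 and 548 CPM in CT-CTD and at 227, 192, 188 and 181 in OE-CTD. The highest OE-CTD library was below the lowest CT-CTD library. Ucp3 had a log2 fold change of -1.38 ± 0.211 (SE; adjusted p = 0.00575 by edgeR) on control diet and of -1.21 ± 0.211 (0.0276) on western diet. The other gene called by edgeR was Vldlr, a lipoprotein receptor, on control diet and Pdk4, an inhibitor of glucose oxidation, on western diet, and DESeq2 called both genes lower on both diets. The log2 fold changes of Vldlr were -0.57 ± 0.132 (SE; adjusted p = 0.0338 by edgeR) on control diet and -0.45 ± 0.132 (0.112) on western diet, and those of Pdk4 -0.83 ± 0.228 (0.0710) and -1.08 ± 0.229 (0.0430), with 0 of the list called in the interaction.

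Fibre and cell type markers were set beside the rise of Hadha. Of 11 markers of slow and oxidative fibres, 4 were higher and 0 lower in OE-CTD relative to CT-CTD at an unadjusted p under 0.05, with a median log2 fold change of 0.27; edgeR and limma called 0 and DESeq2 1, Atp2a2. Their summed level was 10507, 8540.0 and 11695 CPM in CT-CTD and 12589, 11786, 11511 and 13816 in OE-CTD, then 10029.9, 9502 and 11455 in CT-WD and 11399, 11879, 10368 and 12822 in OE-WD, with Myh2 the most abundant at a mean of 2844 CPM. The OE-CTD sums were the higher in all but 1 pair with CT-CTD 3, that of OE-CTD 3, and no marker of the list was at 0. On western diet 3 of 11 were higher and 0 lower at an unadjusted p under 0.05 by edgeR, with a median log2 fold change of -0.02 and 0 called by edgeR or limma and 1, Atp2a2, by DESeq2. Of 12 markers of fast glycolytic fibres 0 were called by the 3 tools in any comparison, with 1 lower, Tnnc2, on control diet and 1 lower, Tnni2, on western diet at an unadjusted p under 0.05 by edgeR. Tnnc2 was at a mean of 0.684 CPM and shares 74% of its exon bases with Ube2c on the other strand. The summed level of the fast markers was 148435, 160247 and 145698 CPM in CT-CTD, 142169, 173934 and 158382 in CT-WD, 134625, 129148, 132997 and 173718 in OE-CTD, then 142655, 137739, 135264 and 178949 in OE-WD, led by Myh4 at a mean of 48980.2 CPM. OE-CTD 4 and OE-WD 4, lowest of their groups in the sum of the 10 enzyme genes, were the highest of their groups in fast markers, and also in slow and oxidative markers and in skeletal muscle markers (97692 and 96683 CPM). The part of fibre markers in the enzyme values was not tested.

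Other cells of muscle were followed by their markers. Of 8 endothelial markers, 5 were higher and 0 lower in OE-CTD relative to CT-CTD at an unadjusted p under 0.05 by edgeR, and 1 rose, Tek (0.52 ± 0.110, log2 fold change and SE, adjusted p = 0.0232). In OE-WD relative to CT-WD 5 were higher and 1 lower, and 1 rose, Cdh5 (0.46 ± 0.0905, adjusted p = 0.0322 by edgeR). DESeq2 called 2 higher on control diet, Tie1 and Tek, and 4 on western diet, Cdh5, Kdr, Tie1 and Tek, and limma called the same gene as edgeR in each. The endothelial markers, led by Cdh5 at a mean of 92.9 CPM and with none at 0, summed to 381, 375 and 407 CPM in CT-CTD, 435, 389.6 and 433 in CT-WD, 464, 468, 443 and 436 in OE-CTD, then 475, 487, 469.7 and 489 in OE-WD. Within each diet all EC-Myc OE libraries were above all CT libraries. Of 6 macrophage markers 5 were higher and 0 lower in OE-CTD relative to CT-CTD at an unadjusted p under 0.05 by edgeR. In that comparison edgeR and limma called 0 and DESeq2 1, Cd68. In OE-WD relative to CT-WD 0 were higher and 0 lower at an unadjusted p under 0.05, and these tools called 0. The sums are given next for all groups. The macrophage markers summed to 60.5, 35.4 and 31.0 CPM in CT-CTD and 58.6, 74.4, 98.9 and 55.9 in OE-CTD. On western diet the sums were 93.8, 45.0 and 38.9 in CT-WD and 55.9, 96.3, 56.1 and 58.3 in OE-WD. The list was led by Lyz2 at a mean of 28.1 CPM. CT-CTD 1 lay among the OE-CTD libraries and the other CT-CTD libraries below them. The part of either cell type in the enzyme values was not tested.

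Of 8 adipocyte markers 0 were called by edgeR in any comparison, with 1 higher and 2 lower in OE-CTD relative to CT-CTD at an unadjusted p under 0.05. DESeq2 called 1, Lep, higher in OE-WD than in CT-WD, and limma 0. The adipocyte list, led by Fabp4 at a mean of 216 CPM, summed to between 174 CPM in OE-CTD 4 and 563 CPM in CT-CTD 1. Of 5 brown adipocyte markers 4 were tested and 0 called by the 3 tools in any comparison, with 1 higher in OE-CTD relative to CT-CTD and 2 lower in OE-WD relative to CT-WD at an unadjusted p under 0.05 by edgeR. The list was led by Cox8b at a mean of 240.0 CPM, and its sum was between 305 and 455 CPM. Most of the sum came from Cox8b and Cox7a1, the latter at a mean of 152 CPM, so it is not read as a level of brown adipocytes. The defining marker Ucp1 did not pass the filter. Of 7 skeletal muscle markers edgeR and limma called 0 in any comparison and DESeq2 1, Myog, lower in OE-WD than in CT-WD. Of 6 cardiac markers 2 were tested and 0 called by the 3 tools, with Myh6, at a mean of 194 CPM, higher in OE-WD than in CT-WD at an unadjusted p under 0.05 by edgeR. In the diet comparisons and in the interaction, 0 of these 14 lists held a gene called by edgeR, DESeq2 or limma. Few genes of any kind were called there. In CT-WD vs CT-CTD, OE-WD vs OE-CTD and the interaction, edgeR called 0%, 0.00647% and 0% of all genes. DESeq2 called 0.226%, 0.00647% and 0.0194%, and limma 0%, 0.00647% and 0%. The part of fat, cardiac or other muscle cells in the enzyme values was not tested.

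Positions and promoters were compared because most of the 10 genes varied together across the libraries. Coordinates are those of the deposited table, in which 98.3% of the shared identifiers had the coordinates of GENCODE M21 on GRCm38 (mm10). Acadm, Hadh and Etfdh lie on chromosome 3, and Hadha and Hadhb lie head to head on chromosome 5 with 85 bases between them. RefSeq promoters (GRCm38.p6) were found for 9 of 10, with none listed for Cpt1b, and the 250 bases before the start were searched on both strands. The GC box GGGCGG was in 6 of 9, Acadl, Cpt2, Echs1, Hadh, Hadha and Hadhb, against 32.7% of all 32851 promoters; the GC box of Hadha is also counted for Hadhb, since the promoters overlap. The nuclear receptor half-site AGGTCA was in 3 of 9, Acadm, Acadvl and Echs1, against 14% of all. The longer half-site TCAAGGTCA, which contains it, was in 0 of 9 against 0.387%, the direct repeat of the half-site spaced by 1 base in 0 of 9 against 0.0335%, and the E-box CACGTG in 0 of 9 against 6.02%. A match describes letters and not a bound site.

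The interval shared by Hadha and Hadhb is shown because the subunits of 1 enzyme are read from its ends. It lies at chr5:30155163-30155247 on GRCm38.p6, outside annotated genes, and is printed on the plus strand with GC boxes in capitals.
Hadha and Hadhb: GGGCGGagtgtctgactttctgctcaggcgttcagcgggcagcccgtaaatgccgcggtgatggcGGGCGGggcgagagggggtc

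The stretches around the half-site are shown for the 3 genes that hold it, to set the matches side by side on GRCm38.p6. All are on the minus strand, the strand of the genes, with the half-site in capitals. For Acadm (chr3:153944857-153944893, outside annotated genes) the match is on the other strand and reads TGACCT. For Acadvl (chr11:70015480-70015545) it is outside annotated genes, and for Echs1 (chr7:140116477-140116534) it is in an intron of Paox, a gene on the plus strand. The matches begin 249 bases before the start of Acadm, 87 before that of Acadvl and 83 before that of Echs1.
Acadm: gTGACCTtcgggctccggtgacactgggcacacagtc
Acadvl: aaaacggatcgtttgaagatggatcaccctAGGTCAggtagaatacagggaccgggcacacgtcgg
Echs1: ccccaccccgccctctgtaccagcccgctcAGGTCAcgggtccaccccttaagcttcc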

How the data were processed

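The authors deposited counts of reads per gene, without normalization, and FPKM, which they scaled to gene length and to a library total; both are for Ensembl genes. HISAT2 2.0.5, featureCounts 1.5.0-p3 and mm10 come from the submitters' processing notes, and settings for strand and for reads on several genes are not given in the sources used here. Transgene reads were not analysed here.

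Here counts were fitted in edgeR 4.0.16 (R 4.3.3; TMM, filterByExpr, quasi-likelihood, a mean for each of the 4 groups), with Benjamini-Hochberg adjustment over the 15458 genes tested; a gene was called at an adjusted p under 0.05. DESeq2 1.42.0 and limma 3.58.1 on log2(FPKM + 1) served as alternatives. The code was tested on simulated data. Replicate numbers were checked as a pairing by correlating deviations from group means: r was 0.385, 0.123 and 0.203 for the CT groups, all over 0.1, and 0.0711 to 0.338 for the EC-Myc OE groups, not all over 0.1; libraries of different genotype did not pair. The common biological coefficient of variation was 17.0%.

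The members and lists were chosen with earlier results of these data known. The lists covered carnitine shuttle and activation, other mitochondrial and peroxisomal beta-oxidation, regulators, PPAR-responsive genes, the tricarboxylic acid cycle, slow and fast fibres, and skeletal muscle, adipocyte, brown adipocyte, endothelial, macrophage and cardiac markers. Named are all 10 members, Myc, the called genes of a list and per comparison at most its 2 with the smallest unadjusted p under 0.05, each marker list's most abundant gene and its markers at 0, and the 6 genes most like the members. DESeq2 and limma were also run for the lists, and the other settings were varied for the 10 members only.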

Additional observations from a re-analysis of the deposited data

Results flagged for a closer look

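In 2 of 28 groups of 4 libraries tested, 1 library lay far from the other 3, at a limit that chance alone passes in about 1 in 20 groups. The ratio of Hadha to Hadhb counts was 1.38 in OE-CTD 4, against 1.12 to 1.15 in the other OE-CTD libraries; in OE-WD 4, not past that limit, it was 1.41, against 1.11 to 1.203 in the other OE-WD libraries. Hadh was at 149 CPM in OE-WD 4, against 190.1 to 195 CPM in the other OE-WD libraries.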

How the results depend on the processing

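In OE-CTD vs CT-CTD, 216 of 240 fits of single genes under alternatives kept direction and side of the threshold; 9 lost a call, 12 gained one and 3 turned direction. Direction also turned in 34 of 240 fits in CT-WD vs CT-CTD and in 12 of 240 in OE-WD vs CT-WD (Echs1 6, Etfdh 3, Acadl 2, Acadm 1), and in 0 in the other comparisons. The count called, 1, was 0 with library size only, with only the groups compared, with the replicate block and with limma on log2(FPKM + 0.1), 2 with limma on log2(FPKM + 1), 5 with DESeq2, and 0 to 3 with a library left out; without OE-CTD 4 and OE-WD 4, an alternative chosen after seeing the data like that of the principal transcript's length, it was 4. With a library left out, the log2 fold change was −0.15 to 0.23 for Cpt1b and −0.0423 to 0.25 for Etfdh. The count at an unadjusted p under 0.05 in OE-CTD vs CT-CTD, 7, was 6 with library size only or with limma. It was 8 with the block, 5 to 8 with a library left out and 8 without OE-CTD 4 and OE-WD 4. At an unadjusted p under 0.05, OE-WD vs OE-CTD (2) had 0 with library size only or limma on log2(FPKM + 0.1), 4 with only the groups compared, 7 with the block and 0 to 4 with a library left out; OE-WD vs CT-WD (2) had 0 without the filter, 3 with the block, 0 to 4 with a library left out and 5 without OE-CTD 4 and OE-WD 4; CT-WD vs CT-CTD (1) had 0 with library size only, limma on log2(FPKM + 0.1) or limma without filter, and 0 to 1 with a library left out; the interaction (0) had 3 with the block and 0 to 2 with a library left out. The cause was not tested. In the 4 comparisons other than OE-CTD vs CT-CTD, none of the settings run called a member. For the interaction a fit of the compared groups alone was not run, since it uses all 4. Depth was not varied, and its part in these counts was not tested; Cpt1b, at 93 to 242 counts a library, had the fewest counts of the 10 genes.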

Other observations

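Ucp1, the uncoupling protein that defines brown fat, had 490 counts in CT-CTD 1 and 73 in OE-WD 1, against 0 to 3 counts in the other 12 libraries. CT-CTD 1 also had the highest summed level of adipocyte markers, 563 CPM. The 10 beta-oxidation genes summed to 2326 CPM in CT-CTD 1, between the other CT-CTD libraries.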
